A study of Canis lupus familiaris with 77 samples.

Results

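Liver and pancreas of the dog were compared over all microRNAs (miRNAs), with 5 liver and 5 pancreas samples, which were the samples whose tissue label reads liver or pancreas. These 10 samples belong to 77 labelled samples of 16 tissues, 76 of which had values, in a miRNA atlas built by miR-seq, the sequencing of the small RNA of a tissue. All tissues came from untreated male beagles that the study's methods give as 10 months old, and both groups share strain, sex, age and the lack of treatment. According to the methods, the dogs were Marshall beagles perfused with buffered saline before the organs were taken. The methods give 5 dogs as the source of the tissues, so liver and pancreas samples may come from the same dogs. No label says which dog a sample came from, so pairs could not be formed, every test treats the 10 samples as independent, and what sharing a dog does to the p-values was not tested.

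A miRNA is cut from a hairpin transcript by Drosha and Dicer, and either arm of the hairpin (5p or 3p) can be loaded into an Argonaute protein to repress messenger RNAs that pair with its seed. Liver and pancreas both arise from foregut endoderm. The liver is made mostly of hepatocytes, whose classical miRNA is miR-122, and the pancreas mostly of acinar cells, known for miR-216a, miR-216b and miR-217, with ducts and with islets in which miR-375 restrains insulin secretion.

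The liver libraries held 614717 to 2594852 reads on miRNAs (median 1293871) and the pancreas libraries 675171 to 2425345 (median 1587085). Levels are given as RPM, the read count of a miRNA scaled to the sample's total of reads on miRNAs. At these depths 3 reads, the upper limit that a count of 0 allows, came to 1.16 to 4.88 RPM in liver and 1.24 to 4.44 RPM in pancreas, which covers counting error only. Names without a prefix are dog (cfa) entries, and hsa and rno mark loci named from human or rat miRNAs. All 20 pairs of samples of the same tissue differed beyond sampling noise (lowest chi-square per degree of freedom 37.5), so that none was counted as the same library deposited again, although libraries made separately from the same RNA could also differ this much. Pancreas sample 4 stood apart, with 39 of 253 tested miRNAs more than 2-fold from the median of the other pancreas samples, against 8 to 16 for the other 4. Its mean Spearman correlation with the other pancreas samples, 0.948, lay within the 0.944 to 0.951 of the others. In liver, sample 4 had the most miRNAs more than 2-fold from the others, 30 against 15 to 23.

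The liver and pancreas profiles shared most of their miRNAs and differed widely in level. Of 253 miRNAs with enough reads for the test, 168 (66.4%) were called at an adjusted p under 0.05, 83 (32.8%) higher in liver and 85 (33.6%) higher in pancreas. Large calls, which also had at least a 4-fold difference and no overlap between the 5 liver and the 5 pancreas samples, numbered 75 (29.6%), of which 22 (8.7%) were higher in liver and 53 (20.9%) higher in pancreas. In 150 miRNAs (59.3%) the 2 tissues did not overlap in RPM. The fitted difference, called or not, pointed to liver in 121 miRNAs (47.8%) and to pancreas in 132 (52.2%). Another 55 calls lay within a 2-fold difference, and 85 miRNAs were not called. The log2 fold changes are liver minus pancreas with their standard error and rest on the trimmed mean of M-values (TMM), which lowered them by 0.44 on average against a plain ratio of RPM (a factor of 1.36). The median over all tested miRNAs was -0.03 with TMM and 0.40 with library totals alone. The split of the calls depended on this scaling, since library totals alone gave 171 calls with 107 higher in liver and 64 higher in pancreas, and large calls of 33 and 49. Without pancreas sample 4 there were 167 calls, 83 and 84.

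**Figure D1:**
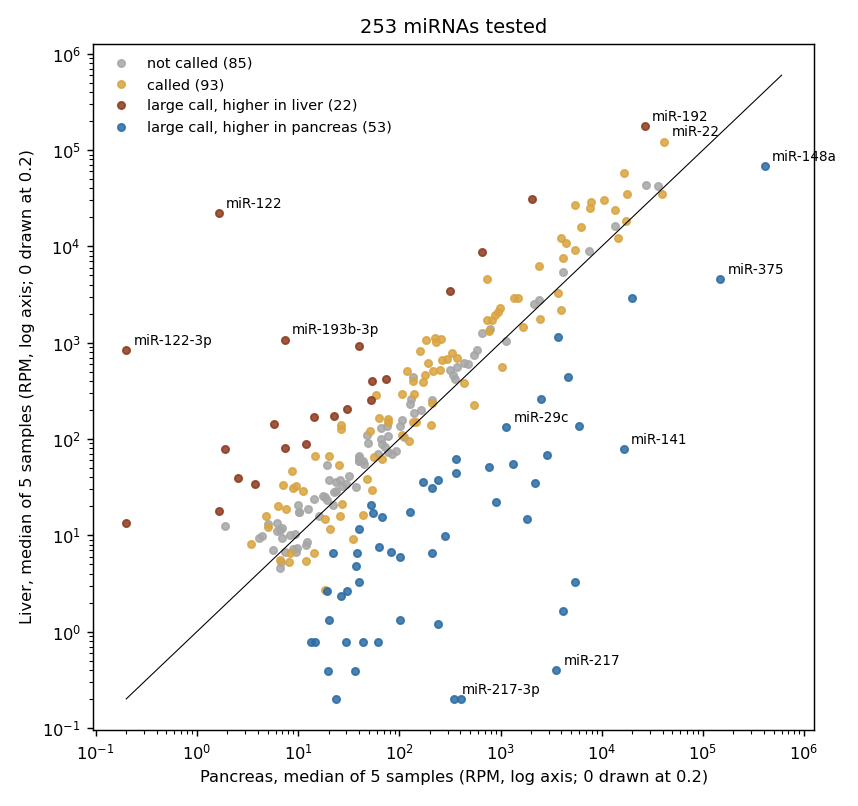
Median RPM of 5 liver samples (vertical) against the median RPM of 5 pancreas samples (horizontal) for the 253 miRNAs tested, both on log axes, with the line of equal RPM. The 22 large calls higher in liver and the 53 higher in pancreas are coloured, and miR-122 and miR-217 lie farthest from the line among the abundant miRNAs.

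The leading miRNA differed between the glands. In pancreas, miR-148a stood at 445204, 431198, 406344, 226890.0 and 355270.0 RPM in samples 1 to 5, and in liver at 78399.6, 79159, 63213, 53594 and 68052 RPM. The groups did not overlap, although pancreas sample 4 held the lowest pancreas value, and the log2 fold change was -2.92 ± 0.27 (edgeR adjusted p = 7.33e-07). miR-148a, which is known to target DNA methyltransferases and is abundant in secretory epithelium, was the highest of 16 tissues in pancreas and the next highest in liver. Pancreatic miR-375 followed at 114179, 129420.0, 148274, 162447 and 167150.0 RPM against 4091, 4467, 5093, 6334 and 4579 RPM in liver, without overlap, with a log2 fold change of -5.31 ± 0.16 (edgeR adjusted p = 6.97e-11). Liver was led by miR-192, a miRNA of hepatic and intestinal epithelium, at 176111, 221981, 188091, 176166 and 159657 RPM, where pancreas had 31891, 24987, 26491, 24407 and 27085 RPM, a log2 fold change of 2.33 ± 0.19 (edgeR adjusted p = 2.26e-07). Next came miR-22, which takes part in metabolic control, at 122389, 123543, 122630.0, 124647 and 122028 RPM in liver and 31188, 41689.6, 37082, 58978 and 56030.3 RPM in pancreas. Its liver samples lay within a narrow range and above every pancreas sample, with a log2 fold change of 1.04 ± 0.13 (edgeR adjusted p = 1.14e-05).

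The 10 most abundant miRNAs of a sample took 65.7% ± 2.17 (SD, n = 5) of the reads in liver and 76.1% ± 3.22 (SD, n = 5) in pancreas (two-sided exact permutation test, p = 0.00794, the smallest that 5 against 5 samples can give). The single most abundant miRNA alone took 18.4% ± 2.33 in liver and 37.3% ± 8.86 in pancreas. The 20 most abundant took 85.8% and 87.8%, a difference that did not pass (exact permutation p = 0.0556). Of the 10 leading miRNAs by median, 7 were shared by both tissues: miR-148a, miR-192, miR-22, miR-30a, let-7f, miR-181a and miR-26a. The number of miRNAs with a read, after each library was thinned to 615551 reads, was 340.4 ± 12.2 (SD, n = 5) in liver and 349.1 ± 15.6 (SD, n = 5) in pancreas (exact permutation p = 0.405).

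**Figure D2:**
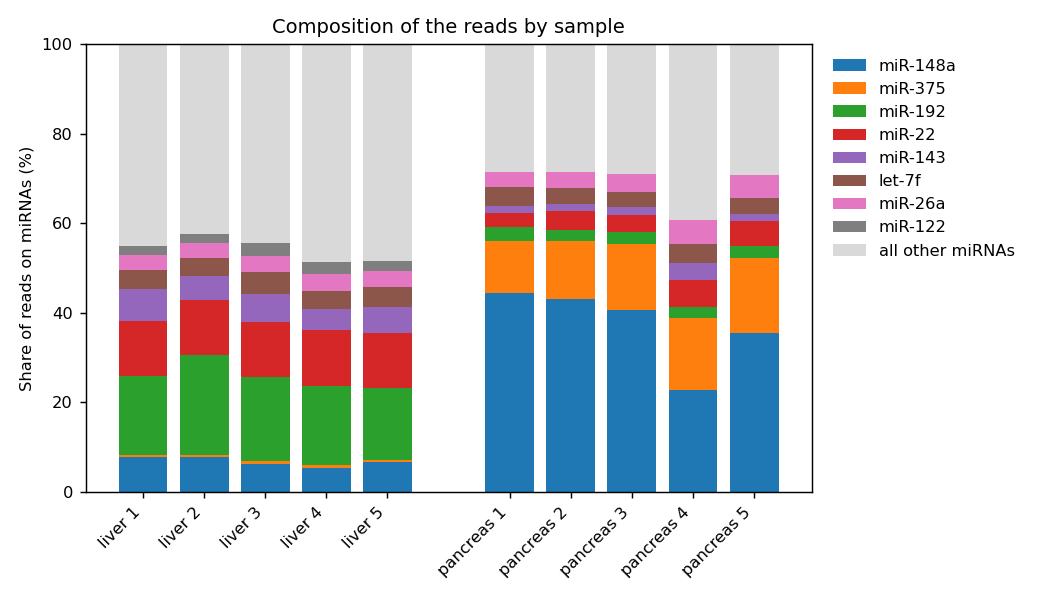
Share of the reads on miRNAs (%, vertical, from 0 to 100) taken by 8 miRNAs in each liver and pancreas sample, with all other miRNAs in grey. miR-148a and miR-375 are the largest parts of the pancreas bars, with the smallest miR-148a share in pancreas 4, while miR-192 and miR-22 lead in liver.

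Hepatocyte miRNAs were higher in liver. Of the 14 listed with a read, 11 were tested, 10 were called higher in liver and 1 higher in pancreas, with a median log2 fold change of 2.54 (2.49 with lower bounds for members absent from a tissue) against -0.03 over all tested miRNAs. Of all tested miRNAs, 32.8% were called higher in liver and 33.6% higher in pancreas. A member absent from pancreas, as hsa-miR-122-3p, could pass the filter only through liver. miR-122, which sustains lipid and cholesterol metabolism in hepatocytes, stood at 21287, 19138, 29156, 27079 and 22008 RPM in liver and at 1.34, 12.6, 1.65, 1.37 and 7.41 RPM in pancreas. Every liver sample lay above every pancreas sample, with a log2 fold change of 11.94 ± 0.56 (edgeR adjusted p = 2.27e-09) that became 12.84 without pancreas sample 2. Its opposite arm hsa-miR-122-3p stood at 829.8, 752, 838, 968 and 1032 RPM in liver and had 0 reads in all 5 pancreas samples, so that it was at least 302-fold higher in liver against 3 reads per library. The next highest of the other tissues for miR-122 was sciatic nerve, at a median of 58.9 RPM.

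miR-192 is transcribed together with a copy of miR-194, a further miRNA of hepatic and intestinal epithelium. miR-194 stood at 9930.1, 8832, 7908, 8759.6 and 8912 RPM in liver and 676, 592, 652, 517 and 677 RPM in pancreas, without overlap, with a log2 fold change of 3.37 ± 0.18 (edgeR adjusted p = 4.51e-09). The neighbour of a miR-194 gene, miR-215, an intestinal miRNA, spanned 47.1 to 163 RPM in liver and 14.3 to 152 RPM in pancreas. These miR-215 ranges overlapped, and its log2 fold change was -0.48 ± 0.49 (edgeR adjusted p = 0.406). The minor arm hsa-miR-192-3p lay at 28.04 to 35.8 RPM in liver and 0 to 6.18 RPM in pancreas, with a log2 fold change of 2.54 ± 0.33 (edgeR adjusted p = 1.55e-05). miR-885, studied as a circulating liver miRNA, lay at 207, 189, 179, 338 and 237 RPM in liver and 21.02, 30.2, 25.98, 37.1 and 38.5 RPM in pancreas and had a log2 fold change of 2.49 ± 0.20 (edgeR adjusted p = 1.91e-07). Its level in liver was below that of brain, at a median of 875 RPM. The one hepatocyte-list entry higher in pancreas was the minor arm hsa-miR-101-5p, while miR-101 itself was higher in liver (log2 fold change 1.19 ± 0.20, edgeR adjusted p = 2.01e-04). With library totals alone, 10 of the 11 were called higher in liver and none higher in pancreas, so the pancreas direction of hsa-miR-101-5p did not pass there.

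The miR-193 family split by tissue. rno-miR-193b-3p, which in adipose and liver cells is tied to metabolic genes, stood at 975, 1072, 889.8, 1523 and 1502 RPM in liver and 7.15, 8.82, 7.42, 76.2 and 1.48 RPM in pancreas, where sample 4 was the highest. Liver and pancreas did not overlap, with a log2 fold change of 5.54 ± 0.65 (edgeR adjusted p = 7.03e-06), or 6.85 without pancreas sample 4. Conversely, hsa-miR-193a-3p stood at 62.6, 62.4, 81.3, 49.4 and 54.1 RPM in liver and 385, 365, 371, 324 and 357 RPM in pancreas, again without overlap, with a log2 fold change of -2.99 ± 0.21 (edgeR adjusted p = 6.55e-08). Both were the highest of 16 tissues, miR-193b-3p in liver and miR-193a-3p in pancreas. miR-193a, the other arm of that hairpin, spanned 18.1 to 46.7 RPM in liver and 12.97 to 37.03 RPM in pancreas and was not called (log2 fold change -0.09 ± 0.26, edgeR adjusted p = 0.802), with a direction that turned under library totals alone. The partner arm miR-193b stood at 8.13 to 16.2 RPM in liver and reached at most 0.686 RPM in pancreas, at least 4.43-fold higher in liver.

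**Figure D3:**
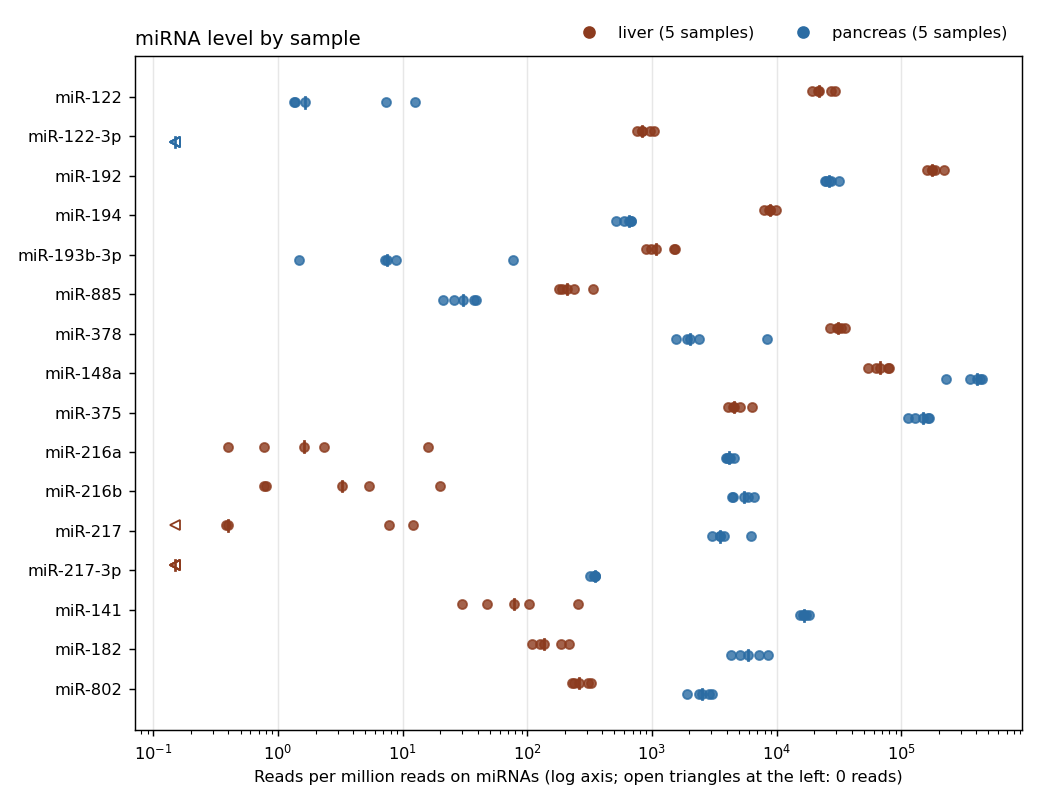
Level of 16 miRNAs in each of 5 liver and 5 pancreas samples (RPM, log axis), with vertical ticks at the medians and open triangles at the left edge for samples with 0 reads. miR-122 and the miR-216 and miR-217 entries show the widest separation. All 16 are large calls, which by definition do not overlap between liver and pancreas (59.3% of all tested miRNAs did not overlap).

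Acinar miRNAs gave the widest separation towards pancreas. All 5 listed entries were called higher in pancreas (33.6% over all tested miRNAs). Log2 fold changes ran from -10.96 to -10.72 for the 3 with more than 3 reads in a liver library. The other 2 could pass the filter only through pancreas. miR-216a stood at 4535, 3927, 4006, 4242 and 4143 RPM in pancreas and 0.399, 0.771, 1.63, 16.02 and 2.32 RPM in liver. miR-216b stood at 4429.6, 5942, 4420.4, 6593 and 5507 RPM in pancreas and 0.798, 0.771, 3.25, 20.03 and 5.41 RPM in liver, and miR-217 at 3006, 3799, 3525, 6274 and 3543 RPM in pancreas and 0.399, 0.385, 0, 12.02 and 7.73 RPM in liver. In liver sample 4 each of these was highest of that tissue, and without that sample the acinar list summed to 1.595 to 15.5 RPM in liver against 49.4 RPM in it. The origin of these reads was not tested. Log2 fold changes were -10.96 ± 0.60 (edgeR adjusted p = 7.08e-09), -10.72 ± 0.61 (edgeR adjusted p = 8.51e-09) and -10.74 ± 0.63 (edgeR adjusted p = 1.01e-08) in the same order, and without liver sample 4 they were -12.29, -11.76 and -11.43 (without liver sample 5, -11.34 for miR-217). The 3p arms rno-miR-216a-3p (335 to 579 RPM in pancreas) and rno-miR-217-3p (318 to 352 RPM) were at least 227-fold and at least 174-fold higher in pancreas, since no liver library held more than 3 reads of either. miR-216a, miR-216b and miR-217 were each highest in pancreas of the 16 tissues.

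Of the 7 islet and endocrine miRNAs tested, 5 were called higher in pancreas and 1, miR-204, higher in liver (33.6% and 32.8% over all tested miRNAs). Another 10 listed miRNAs had reads too low for the test, and without the filter on low counts 10 of 17 were called higher in pancreas and 1 higher in liver. Over all 516 miRNAs in that fit, 129 were called higher in pancreas and 98 higher in liver. In every liver library 11 of the 17 had 3 reads or fewer. Apart from miR-375, the calls were miR-153 (log2 fold change -3.04), miR-7 (-2.39), miR-9 (-2.34) and miR-129. The last had 3 reads or fewer in every liver library and could pass the filter only through pancreas. miR-7, which is abundant in endocrine cells, spanned 30.9 to 100.2 RPM in pancreas, with sample 4 highest, and 8.77 to 21.4 RPM in liver. miR-204 stood at 288, 194, 283, 409 and 360.2 RPM in liver and 58.6, 64.3, 53.6, 130.4 and 51.8 RPM in pancreas, with a log2 fold change of 1.67 ± 0.22 (edgeR adjusted p = 2.32e-05). The list summed to 114636 to 167563 RPM in pancreas, nearly all of it miR-375, and to 4451.9 to 6793 RPM in liver. miR-802, which acts in hepatic glucose metabolism and pancreatic secretion, stood at 1898, 3009, 2889, 2394 and 2512 RPM in pancreas and 259.6, 304, 325, 239 and 228 RPM in liver, with a log2 fold change of -3.66 ± 0.22 (edgeR adjusted p = 1.05e-08).

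Epithelial miRNAs were higher in pancreas. The miR-200 family keeps cells epithelial by repressing ZEB1 and ZEB2. All 8 tested members were large calls in pancreas (20.9% over all tested miRNAs), with log2 fold changes from -7.69 to -5.56. Among them miR-200b had 3 reads or fewer in every liver library, so it could pass the filter only through pancreas. Its level was at least 22.1-fold higher in pancreas. miR-141 stood at 18258, 16222, 16612, 15356 and 17342 RPM in pancreas and 104, 253, 47.2, 78.8 and 30.1 RPM in liver, with a log2 fold change of -7.69 ± 0.61 (edgeR adjusted p = 1.94e-07), or -8.56 without liver sample 2 (-8.44 for hsa-miR-141-5p). The family summed to 24349 to 26024 RPM in pancreas and 162 to 376 RPM in liver, so that no samples overlapped. Both genomic groups took part, the miR-141/200c pair (-7.69 to -7.32) and the miR-200a/200b/429 trio (-6.17 to -5.56). hsa-miR-200a-3p stood at 2199.6, 2767, 1999.7, 2864 and 1877 RPM in pancreas and 74.2, 34.7, 35.8, 34.7 and 34.01 RPM in liver, where sample 1 was highest, and its opposite arm miR-200a moved to a log2 fold change of -6.96 without that sample. Since tissue was sequenced in bulk, fewer cells of a type and less RNA per cell cannot be told apart.

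The miR-183 cluster holds co-transcribed miRNAs of sensory and secretory epithelium. Of its 5 entries with a read, 3 were tested, and all 3 were large calls in pancreas (20.9% over all tested miRNAs). Among them miR-96 had 3 reads or fewer in every liver library, so it could pass the filter only through pancreas. Without the filter all 5 were called higher in pancreas (129 of 516 over all miRNAs). miR-182 stood at 4337, 8468, 5115, 7258 and 5938 RPM in pancreas and 217, 136, 127, 186 and 109 RPM in liver, with a log2 fold change of -5.75 ± 0.28 (edgeR adjusted p = 2.27e-09). miR-183 stood at 220.5, 279, 282, 298 and 338 RPM in pancreas and 13.96, 7.32, 9.76, 18.7 and 3.09 RPM in liver, with a log2 fold change of -5.20 ± 0.34 (edgeR adjusted p = 3.37e-08). The duct and squamous list had 4 of 4 tested miRNAs called in pancreas (33.6% over all tested miRNAs). Among them was miR-31 at 1275, 1630.0, 1263, 1337 and 1446 RPM against 152, 55.5, 26.03, 53.4 and 62.6 RPM in liver (log2 fold change -4.71 ± 0.40, edgeR adjusted p = 3.18e-07, or -5.31 without liver sample 1). miR-203, known from keratinocytes, overlapped between tissues (160.0 to 226 RPM in pancreas, 121 to 197 RPM in liver), and its call (log2 fold change -0.83 ± 0.22, edgeR adjusted p = 0.00523) was lost with library totals alone. The family of let-7, whose members slow proliferation, was at 54031 to 69717 RPM in pancreas and 73060 to 95417 RPM in liver, and 5 of 10 tested were higher in liver and 1 in pancreas, beside 32.8% and 33.6% over all tested miRNAs. These counts became 7 and 0 with library totals alone (107 and 64 of 253 over all tested miRNAs) and 3 and 1 without liver sample 1.

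**Figure D4:**
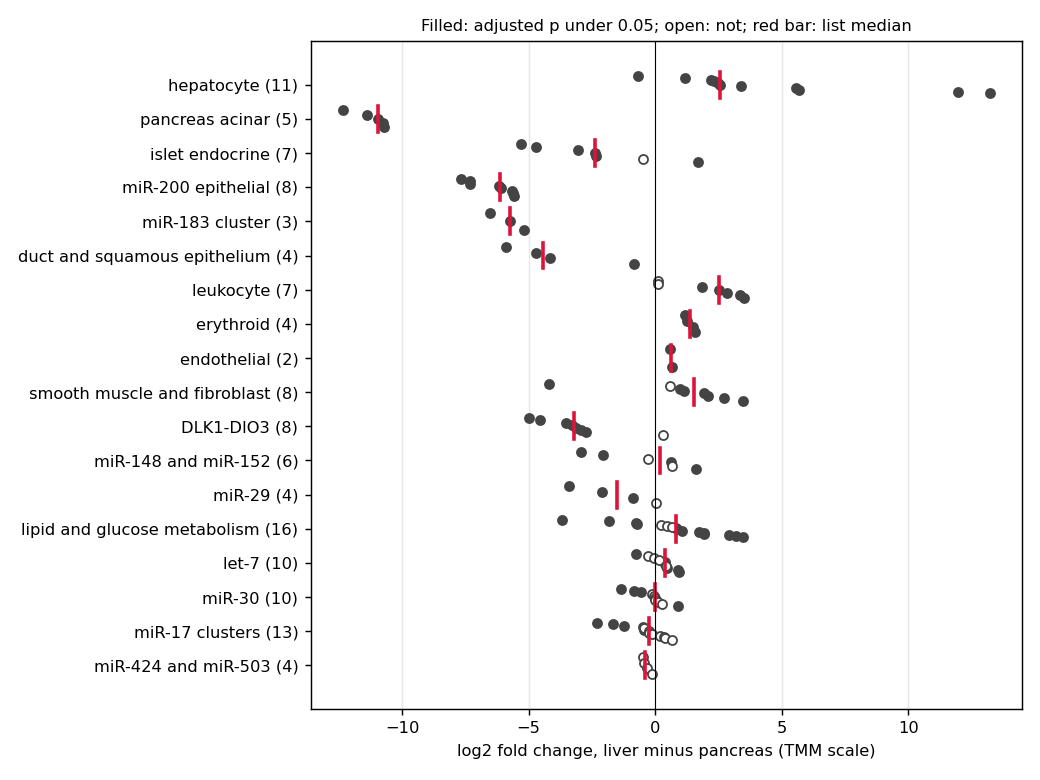
Log2 fold change (horizontal, liver minus pancreas, TMM scale) of every tested miRNA in 18 lists, whose numbers tested stand in parentheses. Filled points passed the adjusted p threshold, open ones did not, and the red bar is the median of the list. The acinar, miR-200, miR-183, duct and squamous, and miR-424 and miR-503 lists lie wholly below 0, the last of them without a call. The leukocyte, erythroid and endothelial lists lie wholly above.

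Leukocyte, erythroid, vessel and mesenchymal miRNAs were mostly called higher in liver, where 32.8% of all tested miRNAs were. Of 7 leukocyte miRNAs tested, 5 were higher in liver and 2 (miR-146b and miR-155) were not called, with a list sum of 3938.6 to 5868 RPM in liver and 478 to 1427 RPM in pancreas, highest in pancreas sample 4. miR-142, restricted to blood cells, stood at 3434, 3089, 3777, 1753 and 3603 RPM in liver and 319.7, 285, 372, 428 and 204 RPM in pancreas, with a log2 fold change of 2.85 ± 0.25 (edgeR adjusted p = 5.14e-07). miR-146a, which damps inflammatory signalling, stood at 682, 914, 730.4, 1418 and 1425 RPM in liver and 26.8, 49.1, 26.4, 224 and 39.99 RPM in pancreas, with a log2 fold change of 3.50 ± 0.51 (edgeR adjusted p = 4.52e-05), or 4.33 without pancreas sample 4. Without pancreas sample 4, 6 of the 7 were called higher in liver.

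Erythroid miRNAs, carried by red cells, were called higher in liver for 4 of 4 tested, with log2 fold changes of 1.18 to 1.57. miR-486 stood at 36376, 18536, 32137, 28708 and 26326 RPM in liver and 5161, 8366, 10455, 7857 and 2990.3 RPM in pancreas, and miR-451 at 8747, 5169, 7062, 4611 and 6236 RPM and 2423, 2379, 3212, 1342 and 541 RPM. Liver and pancreas did not overlap for either, but the miR-451 call (log2 fold change 1.18 ± 0.42, edgeR adjusted p = 0.0243) was lost, and only 2 of the 4 list calls passed, when liver sample 1, pancreas sample 2 or pancreas sample 4 was left out. The part of residual blood in these levels was not tested. Endothelial miR-126 stood at 15883, 16042, 13585, 14262 and 16196 RPM in liver and 7826, 6258, 5945, 11817 and 6271 RPM in pancreas, with a log2 fold change of 0.59 ± 0.15 (edgeR adjusted p = 0.00473).

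Smooth muscle and fibroblast miRNAs gave 6 of 8 tested higher in liver and 1 higher in pancreas (32.8% and 33.6% over all tested miRNAs). miR-143 stood at 72648, 53984, 63818, 47655 and 58471 RPM in liver and 16595, 16056, 17134, 38971 and 14644 RPM in pancreas, highest there in sample 4, with a log2 fold change of 1.14 ± 0.21 (edgeR adjusted p = 3.85e-04). miR-214, a miRNA of stellate cells and fibroblasts, stood at 139, 84.8, 142, 169.6 and 213 RPM in liver and 4.02, 8.82, 5.77, 27.4 and 4.44 RPM in pancreas, with a log2 fold change of 3.48 ± 0.40 (edgeR adjusted p = 6.42e-06), or 4.09 without pancreas sample 4. The miR-199 paralogues parted, since hsa-miR-199a-5p was higher in liver (log2 fold change 2.10 ± 0.25, edgeR adjusted p = 9.09e-06) and hsa-miR-199b-5p higher in pancreas (-4.22 ± 0.44, edgeR adjusted p = 2.37e-06). hsa-miR-199b-5p was named after its values were seen. Its pancreas samples stood at 80.9, 83.2, 75.04, 279 and 88.9 RPM, with sample 4 again highest, against 3.59, 12.3, 13.01, 6.68 and 6.18 RPM in liver.

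Metabolic miRNAs were called in both directions. Of 16 tested lipid and glucose miRNAs, 9 were higher in liver and 4 higher in pancreas (32.8% and 33.6% over all tested miRNAs). With library totals alone it was 12 and 2 (107 and 64 of 253 over all tested miRNAs). miR-378, encoded within the gene of the coactivator PGC-1beta, stood at 30788, 26794, 31213, 32878 and 35410.0 RPM in liver and 1901, 2403, 1562, 8443 and 2031 RPM in pancreas, with a log2 fold change of 2.93 ± 0.35 (edgeR adjusted p = 9.09e-06). miR-21, induced in proliferation and fibrosis, stood at 24921, 28742, 27167, 23017 and 28465 RPM in liver and 6663, 4968, 5437, 7549 and 5415 RPM in pancreas, with a log2 fold change of 1.71 ± 0.14 (edgeR adjusted p = 3.18e-07). hsa-miR-505-3p stood at 145 to 244 RPM in liver and 11.6 to 25.2 RPM in pancreas, which ranked lowest of the 16 tissues, with a log2 fold change of 3.09 ± 0.22 (edgeR adjusted p = 7.67e-08). miR-26a ran the other way and overlapped between tissues (34315 to 52467 RPM in pancreas, 31763 to 37449.8 RPM in liver), with a log2 fold change of -0.70 ± 0.11 (edgeR adjusted p = 6.74e-05) that did not pass with library totals alone. miR-221, a proliferation-linked miRNA, was at 947 to 1433 RPM in liver and 208 to 314 RPM in pancreas, with a log2 fold change of 1.84 ± 0.12 (edgeR adjusted p = 3.35e-08).

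Close paralogues parted between these glands in several families. miR-10a and miR-10b, each encoded in a HOX gene cluster, were called in opposite directions: miR-10a at 30341, 31522, 20481, 33836 and 30075 RPM in liver and 10725, 7797, 8835, 21625 and 10541 RPM in pancreas (log2 fold change 0.91 ± 0.20, edgeR adjusted p = 0.00158, not called with all tissues in the fit), miR-10b at 2911, 2059, 2697, 5597 and 4466 RPM and 21006, 19993, 18149, 42082 and 17563 RPM (log2 fold change -3.17 ± 0.26, edgeR adjusted p = 2.83e-07). Pancreas sample 4 held the highest pancreas value of both, and its miR-10a lay above the lowest liver sample. Within the family of miR-148 and miR-152, hsa-miR-148a-5p followed miR-148a to pancreas (log2 fold change -2.07 ± 0.19, edgeR adjusted p = 8.43e-07), whereas miR-148b (0.64 ± 0.17, edgeR adjusted p = 0.00421) and miR-152 (1.62 ± 0.30, edgeR adjusted p = 3.94e-04) were higher in liver. The miR-29 family, known to repress collagens, was higher in pancreas for 3 of 4 tested (33.6% over all tested miRNAs), and for 2 of 6 with all tissues in the fit (82 of 480 over all miRNAs). Of these, miR-29c stood at 1074, 1147, 1212, 1047 and 1136 RPM in pancreas and 175, 133, 169, 109 and 133 RPM in liver (log2 fold change -3.41 ± 0.20, edgeR adjusted p = 1.01e-08). miR-29b was not called (log2 fold change 0.02 ± 0.17, edgeR adjusted p = 0.921).

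The miR-181 paralogues, immune and neuronal regulators in other settings, were named after their values were seen except miR-181a. miR-181a stood at 28555, 29760.5, 35057, 40235 and 40117 RPM in liver and 16267, 16048, 17988, 25963 and 17582 RPM in pancreas (log2 fold change 0.46 ± 0.11, edgeR adjusted p = 0.00299, not called with all tissues in the fit). miR-181c, by contrast, stood at 3964, 4521, 4599, 6077 and 4775 RPM in pancreas and 443, 407, 501, 362 and 646 RPM in liver (log2 fold change -3.78 ± 0.16, edgeR adjusted p = 1.59e-09), and miR-181d moved with it (-3.24 ± 0.17, edgeR adjusted p = 4.17e-09). The list for the imprinted DLK1-DIO3 locus, a large miRNA domain active in brain and embryo, held 52 miRNAs with a read. In every liver library 43 of them had 3 reads or fewer. The list includes miR-342 and miR-345, whose place within the locus was not tested. Only 8 had enough reads for the test, and a miRNA absent from liver could pass that filter only through pancreas, so that the 7 of 8 called higher in pancreas do not describe the locus. Without the filter 21 of 52 were called higher in pancreas, beside 129 of 516 over all miRNAs. With all tissues in the fit it was 17 of 48, beside 82 of 480. miR-127 stood at 214, 444, 294, 518 and 366 RPM in pancreas and 81.7, 21.6, 43.9, 62.8 and 40.96 RPM in liver, with a log2 fold change of -3.29 ± 0.33 (edgeR adjusted p = 1.46e-06), and miR-411 had -3.14 ± 0.25 (edgeR adjusted p = 1.79e-07). Brain, the highest tissue for miR-127, had a median of 44471 RPM.

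Calls were also set beside the position of the miRNA genes. Of 253 tested miRNAs, 212 were matched to a gene of the dog assembly UU_Cfam_GSD_1.0, and genes at most 10 kb apart formed 27 groups with at least 2 tested hairpins. In 15 of the groups at least 2 hairpins were called. The calls ran only towards liver in 4 of these, only towards pancreas in 10 and both ways in 1. A member absent from 1 tissue could pass the filter only through the other and be called only that way, as miR-96 towards pancreas. The counts by direction are therefore partly set by the filter. The DLK1-DIO3 locus gave more than 1 of the groups called only towards pancreas. A further 8 groups had 1 called hairpin and 4 had no call. Some uncalled neighbours had a fitted difference of the opposite sign, as miR-215 beside miR-194. How often genes placed at random would share a direction was not tested. The group called both ways was miR-23b and miR-27b: miR-23b, a TGF-beta-linked miRNA, stood at 738 to 1497 RPM in liver and 238 to 417 RPM in pancreas (log2 fold change 1.48 ± 0.18, edgeR adjusted p = 9.19e-06), and miR-27b at 17519 to 19326 RPM and 15261 to 22900.3 RPM (-0.38 ± 0.11, edgeR adjusted p = 0.00806). The pancreas direction of miR-27b turned with library totals alone. The same scaling moved the median of the miR-17 clusters, cell-cycle miRNAs, from -0.25 to 0.14, and their calls from 0 in liver and 5 in pancreas to 4 and 2 of 13 tested. Over all 253 tested miRNAs it moved the median from -0.03 to 0.40, and calls from 83 in liver and 85 in pancreas to 107 and 64.

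Some miRNAs often used for normalisation differed between the glands. Of 7 entries of that list tested, 2 were higher in each tissue by call and 3 were not called, near the 32.8% and 33.6% over all tested miRNAs. With all tissues in the fit only 1 was called, higher in liver. miR-191 was higher in liver (18805 to 34507 RPM against 6160.4 to 9677 RPM, log2 fold change 1.29 ± 0.16, edgeR adjusted p = 1.11e-05), miR-29a higher in pancreas (-0.87 ± 0.13, edgeR adjusted p = 4.13e-05, not called with all tissues in the fit), miR-186 higher in pancreas (-0.57 ± 0.12, edgeR adjusted p = 7.63e-04, overlapping, and not called with library totals alone) and miR-16 slightly higher in liver (0.31 ± 0.13, edgeR adjusted p = 0.0464). The miR-16 call was lost in most alternatives. The cluster of miR-424 and miR-503 had 0 of 4 tested miRNAs called, and neither of the 2 striated muscle miRNAs tested passed (edgeR, 0 in both lists also at an unadjusted p under 0.05). miR-133a spanned 13.9 to 120.0 RPM in liver and 6.26 to 62.4 RPM in pancreas against a heart median of 80340.0 RPM. The remaining lists had calls both ways or few calls. Their counts lay near or below the share of 32.8% higher in liver and 33.6% higher in pancreas over all tested miRNAs, or rest on 7 or fewer members. The miR-30 family gave 1 higher in liver and 3 higher in pancreas of 10 tested. With library totals alone it gave 5 and 2 (107 and 64 of 253 over all tested miRNAs), when its median log2 fold change moved from -0.02 to 0.41. The miR-23/24/27 family gave 3 and 2 of 7 (4 and 0 with library totals alone), the list of miR-99, miR-100 and miR-125 2 and 1 of 7, and the miR-15/16 family 3 and 0 of 7. The list of secretory stress and duct miRNAs gave 3 and 3 of 9, the brain list 0 and 2 of 4, and the list of miR-34 and miR-449 0 and 1 of 1. Across the 16 tissues, liver held the highest median for 7 of the 22 large calls higher in liver, and pancreas for 24 of the 53 higher in pancreas.

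Arm use differed for some hairpins. Both arms were read for 154 hairpins, 102 passed a median of 1 RPM on the weaker arm in at least 1 of the tissues, and 34 of these differed in the log2 ratio of 5p to 3p (with 1 RPM added to each) at an adjusted p under 0.05 (two-sided exact permutation tests, Benjamini-Hochberg over the 102, 14 with more 5p in liver and 20 with more in pancreas). In 14 of the 34 an arm was at 3 reads or fewer in every library of 1 tissue, so that the ratio depended on the added 1 RPM. The largest differences were those of miR-200c, miR-183, miR-193b, miR-193a and miR-122, of which only miR-193a had both arms above 3 reads in both tissues. Its ratio was -1.01 ± 0.74 (SD, n = 5) in liver and -3.87 ± 0.62 (SD, n = 5) in pancreas (exact permutation, adjusted p = 0.0289). In 28 hairpins the weaker arm had a median of 10 RPM or more in both tissues, and 13 of them were called, 7 with more 5p in liver and 6 with more in pancreas.

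The mean ratio changed sign between tissues in 2 called hairpins, miR-361 and miR-151, both named after their values were seen. Only for miR-361 did all samples of the tissues lie on opposite sides of 0. miR-361 had a 5p to 3p log2 ratio of 1.20 ± 0.24 (SD, n = 5) in liver and -0.33 ± 0.15 (SD, n = 5) in pancreas (exact permutation, adjusted p = 0.0289). Its 5p arm stood at 121, 115, 116, 194 and 162 RPM in liver and 41.6, 42.8, 51.5, 72.7 and 56.3 RPM in pancreas, and its 3p arm at 62.2, 57.04, 40.7, 72.1 and 72.7 RPM and 48.3, 64.3, 66.8, 85.8 and 68.1 RPM. miR-151 had a ratio of -0.26 ± 0.35 (SD, n = 5) in liver and 0.77 ± 0.54 (SD, n = 5) in pancreas (exact permutation, adjusted p = 0.0289). The liver samples ran from -0.79 to 0.14, on both sides of 0, and the pancreas samples from 0.40 to 1.69. The miR-151 call was lost without pancreas sample 1 (adjusted exact permutation p = 0.0533). Its 3p arm, rno-miR-151-3p, stood at 2928, 2619.8, 2809, 4939.9 and 3673 RPM in liver and 738, 1325, 1366, 1982 and 1437 RPM in pancreas, while the 5p arm was at 2528 to 2878 RPM and 1799 to 2612 RPM. Counts of called hairpins varied with the added RPM (0 with 0.5, where 34 had an unadjusted exact permutation p under 0.05, and 57 with 10) and fell to 17 to 24 when a single sample was left out, whichever sample that was.

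**Figure D5:**
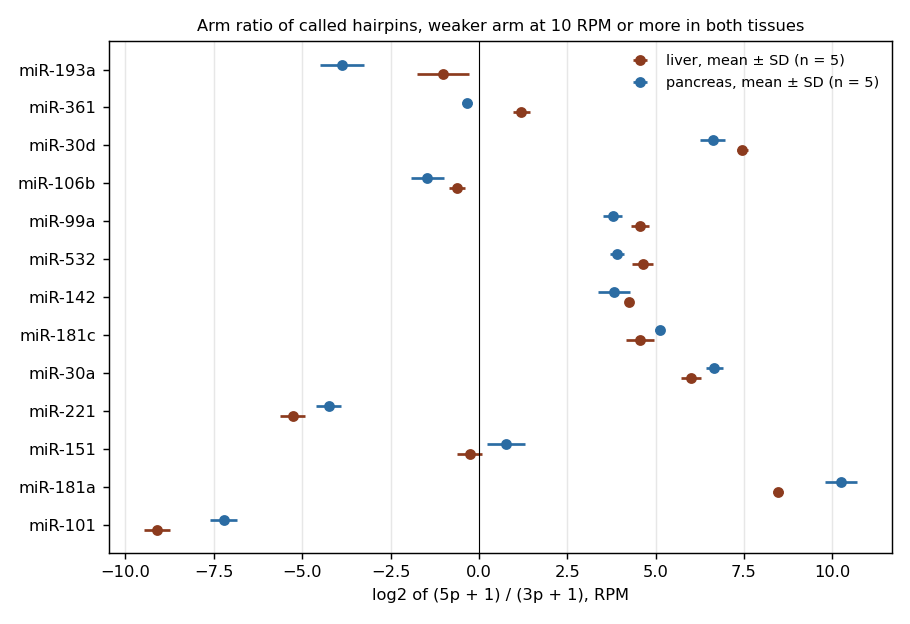
Log2 of the 5p over the 3p level with 1 RPM added to each (horizontal), mean with SD over 5 samples, for the 13 called hairpins whose weaker arm had a median of at least 10 RPM in both tissues. miR-361 lies on opposite sides of 0 in liver and pancreas, as do the means of miR-151.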

How the data were processed

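Reads on miRNAs of 5 liver and 5 pancreas samples were taken from the deposited table. The authors clipped adaptors, aligned to CanFam3.1, counted reads over dog, rat and human miRNA loci, and deposited read counts, sample totals of reads on miRNAs and RPM, whose scaling is counts over total. miRNAs absent from a sample were set to 0. RPM rebuilt from counts and totals matched the deposited values within 2.89e-09 (relative), and listed counts exceeded totals by 0.0449 to 0.148%. There was 1 sample name that matched no label and 1 labelled sample had no values, and neither was used. Reads shared by near-identical miRNAs and paralogues cannot be split, so levels of such members are uncertain.

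Counts were tested with edgeR 4.0.16 (TMM, filterByExpr, quasi-likelihood, the deposited totals as library size, Benjamini-Hochberg) in R 4.3.3. DESeq2 1.42.0, library totals, other filters, all tissues in 1 fit, an exact rank-sum test and each sample left out were alternatives, and 1 filter on arm ratios was added after the values were seen. Shares, detection and arm ratios used two-sided exact permutation tests over samples. The other steps ran in Python 3.11.15 with pandas 2.3.3 and numpy 2.4.6, and plots in matplotlib 3.10.9. Folds against a tissue at 3 reads or fewer in every library are lower bounds against 3 reads per library. The edgeR fit was tested on simulated counts, where it recovered 83.2% of 2-fold and 100% of 4-fold changes. These counts used 1 mean profile for both tissues, so they did not copy the difference in composition between liver and pancreas. The exact permutation test was only checked on values with a known answer.

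The tissues, miRNA lists and tests were chosen with earlier results of these data known. Named miRNAs were the 12 largest large calls each way above 100 RPM, the 10 most abundant per tissue, those the study names for either tissue, 2 of each of 28 lists and 5 hairpins. The rule allowed 2 to 4 per list. Taking 2 was decided after a run with 4, and the counts for 4 stand with the closing values. Analysis by shared seed was not run, as no sequences were used here.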

Additional observations from a re-analysis of the deposited data

Results flagged for a closer look

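A sample stood apart from the other 4 of its tissue by Dixon's test (critical ratio 0.71) in 21 of 152 tests over the named miRNAs, where chance gives about 1 in 20. Pancreas sample 4 accounted for 14 of the 21. Pancreas 4 was highest for rno-miR-193b-3p at 76.2 RPM (others 1.48 to 8.82), miR-146a at 224 RPM (others 26.4 to 49.1), miR-214 at 27.4 RPM (others 4.02 to 8.82), miR-378 at 8443 RPM (others 1562 to 2403), miR-217 at 6274 RPM (others 3006 to 3799), miR-143 at 38971 RPM (others 14644 to 17134) and miR-181a at 25963 RPM (others 16048 to 17988). Further pancreas 4 maxima were miR-10a at 21625 RPM (others 7797 to 10725), miR-10b at 42082 RPM (others 17563 to 21006), miR-204 at 130.4 RPM (others 51.8 to 64.3), hsa-miR-126-3p at 1209.8 RPM (others 600.3 to 776), miR-199 at 1726 RPM (others 658 to 755), miR-99a at 559 RPM (others 322 to 348) and miR-15a at 388 RPM (others 275 to 302). The lowest pancreas value that stood apart was rno-miR-217-3p at 318 RPM (others 345 to 352) in pancreas sample 1. Liver sample 4 was highest for miR-216a at 16.02 RPM (others 0.399 to 2.32) and miR-216b at 20.03 RPM (others 0.771 to 5.41). Liver sample 1 was highest for hsa-miR-200a-3p at 74.2 RPM (others 34.01 to 35.8) and miR-31 at 152 RPM (others 26.03 to 62.6). Liver sample 3 was lowest for miR-10a at 20481 RPM (others 30075 to 33836) and highest for miR-215 at 163 RPM (others 47.1 to 80.1). Naming 4 instead of 2 miRNAs per list gave 31 such samples in 232 tests, 22 of them pancreas 4. The 14 of pancreas 4 include stromal, leukocyte and liver-high miRNAs as well as the acinar miR-217, and why this sample differs was not tested.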

How the results depend on the processing

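Counts of calls stayed between 160 and 175 except without the filter on low counts, which gave 227 (98 higher in liver, 129 in pancreas). The calls themselves were less stable than their number, since of the 168 calls 130 were kept with all tissues in the fit, 147 with library totals alone and 144 by the rank-sum test. A mean of at least 10 RPM kept 154 of 157 still tested, and 160 to 166 were kept under the others. No call of the reported fit turned direction and passed in another setting. Over the named miRNAs and hairpins, 1290 recomputed values kept direction and side of the threshold, 59 no longer passed, 17 newly passed and 34 turned direction. Naming 4 per list would have given 1843, 79, 24 and 81. All miRNAs that turned had a log2 fold change between -0.38 and 0.03 in the reported fit. With library totals alone the log2 fold changes were 0.17 for let-7f, 0.0417 for miR-27b, 0.35 for miR-193a, 0.11 for miR-128, 0.42 for miR-30d, 0.31 for miR-92a, 0.22 for miR-25 and 0.15 for hsa-miR-424-5p. The rank-sum test on RPM gave 0.17 for let-7f, 0.0417 for miR-27b, 0.32 for miR-193a, 0.11 for miR-128, 0.42 for miR-30d, 0.31 for miR-92a, 0.22 for miR-25 and 0.13 for hsa-miR-424-5p, and it called 168 miRNAs, 106 higher in liver and 62 in pancreas. The fit of all tissues gave 0.0601 for let-7f, 0.24 for miR-193a, 0.00655 for miR-128, 0.34 for miR-30d, 0.21 for miR-92a, 0.10 for miR-25 and 0.0031 for hsa-miR-424-5p. miR-499 (0.03) became -0.0164 with DESeq2 size factors, -0.0045 without the filter, -0.0545 with a mean of at least 10 RPM and -0.0158 with DESeq2. With a sample left out it ran from -0.12 to 0.19, and miR-30d from -0.16 to 0.04999. The counts of hairpins called, 34, were 0 with 0.5 RPM added, 57 with 10, 20 and 8 with a weaker arm of at least 10 and 100 RPM, 14 with 10 RPM in both tissues (chosen after the values were seen), and 17 to 24 with a sample left out. With 0.5 RPM the smallest adjusted p was 0.0506. The 20 most abundant miRNAs differed by -2.04 percentage points (exact permutation p = 0.0556). No paired analysis was possible because no label says which liver and pancreas samples came from the same dog. The planned analysis by seed families was not run. Depth limits miRNAs below a few RPM, and 5 samples per tissue limit exact tests to p = 0.00794.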

Other observations

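A group of neighbouring genes not treated in the comparisons above, miR-362, miR-500, miR-502, miR-532 and miR-660, had 6 tested miRNAs. Of these, 4 were called higher in liver (32.8% over all tested miRNAs) and 2 were not called, with log2 fold changes from 0.04 to 0.94. In the dog-named set, miR-8884 had a log2 fold change of -1.10 ± 0.22 (edgeR adjusted p = 8.27e-04) and stood at 12.4, 13.5, 17.9, 16.02 and 17.00 RPM in liver and 27.3, 16.4, 28.04, 26.1 and 17.8 RPM in pancreas. These were chosen after their values were seen.

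At the level of detection, 14 miRNAs had more than 3 reads in every pancreas library and at most 3 in every liver library, and 4 showed the reverse. The pancreas set held rno-miR-216a-3p, rno-miR-217-3p, miR-200b, miR-96, both arms of miR-335 and of miR-129, and arms of miR-132 and miR-212, and the liver set held hsa-miR-122-3p, miR-193b, hsa-miR-365a-5p and hsa-miR-885-3p. miR-96 stood at 22.8, 23.9, 20.6, 29.5 and 23.7 RPM in pancreas and at least 12.1-fold above liver. miR-335, from an imprinted gene, stood at 29.5, 20.2, 17.7, 44.6 and 29.6 RPM in pancreas and at least 13.96-fold above liver.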
